A study of Arabidopsis thaliana with 12 samples.

Results

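The 10 genes described here are LHY, CCA1 and the REVEILLE genes RVE1 to RVE8 of Arabidopsis thaliana, which encode closely related MYB-like transcription factors. They were taken by their gene identifiers from count tables of 69383 features, and all 10 passed the filter on low counts that left 22465 features for testing. RNA with poly(A) tails from whole seedlings, 12 days old and grown in long days on a medium with sucrose, was sequenced in 4 groups of 3 libraries. The groups were RNAi-MARS seedlings 4 h after a spray with 10 µM abscisic acid (ABA), a hormone of drought and seed dormancy, RNAi-MARS seedlings before it (0 h), and Col-0 seedlings at 4 h and at 0 h. Col-0 is the wild type. RNAi-MARS is a line in which RNA interference targets MARS, a long non-coding RNA, and the series asks how lowering MARS changes the response to ABA. The design text names the construct's plants RNAI-MARS-1 and does not give the promoter of the construct, and no control line with another construct was used here. No group was sampled at 4 h without the spray and the harvest hours are not given in the sources used here, so ABA, spraying and the hours of the day that passed cannot be told apart in any comparison of 4 h with 0 h.

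LHY and CCA1 proteins bind the evening element and related short DNA motifs and repress evening genes such as TOC1 and GI and the daytime PRR genes. TOC1 and PRR proteins in turn repress LHY and CCA1. The RNAs of LHY and CCA1 peak around dawn and decline through the day in untreated plants. RVE8, with its close relatives RVE4 and RVE6, binds the same motif but activates evening genes together with the LNK coactivators. RVE1, RVE2 and RVE7 are usually described as clock outputs, of which RVE1 promotes auxin production and seed dormancy.

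Total counts were 19020202 to 38787804 per library. Levels are given as CPM, counts scaled to a common library size after TMM normalization, and a level set beside that of another gene is CPM per kilobase (kb) of exon. A gene was called at an edgeR adjusted p under 0.05 over all 22465 tested features, and log2 fold changes carry their standard error (SE, n = 3 per group). MARS itself had 2.30, 1.34 and 4.11 CPM in RNAi-MARS at 4 h and 21.3, 9.09 and 20.1 CPM in Col-0 at 4 h. Before the spray it had 0.196, 0.156 and 0.167 CPM in RNAi-MARS and 6.63, 2.60 and 0.344 CPM in Col-0, so it was lower in each RNAi-MARS library than in the Col-0 libraries of the same time. All 15 root markers and all 11 shoot markers were detected in every library. Library C of Col-0 at 4 h stood apart by a summed heat shock level of 631 CPM, against 435 and 347 CPM in the other libraries of its group, and library C of RNAi-MARS at 0 h by its plastid reads, 0.104% of its counts, where the other libraries had 0.0256% or less.

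Before the spray the family was dominated by CCA1, LHY and RVE4, and 4 h after it RVE4 and CCA1 led while LHY had dropped to the ninth place of 10. The summed level of the 10 genes was 138 ± 4.78 CPM per kb in RNAi-MARS at 4 h and 499 ± 27.4 CPM per kb at 0 h (SD, n = 3). In Col-0 it was 131 ± 16.0 CPM per kb at 4 h and 561 ± 57.2 CPM per kb at 0 h. The groups at 4 h and at 0 h did not overlap, while the genotypes overlapped at both times. LHY made up 4.09% of the summed level in RNAi-MARS at 4 h and 23.4% at 0 h, and 2.63% in Col-0 at 4 h and 21.5% at 0 h. The share of RVE4 moved the other way, with 28.5% in RNAi-MARS at 4 h and 18.0% at 0 h, and 28.5% in Col-0 at 4 h and 15.7% at 0 h. In whole seedlings, fewer cells that express a gene and less RNA per cell cannot be told apart.

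**Figure D1:**
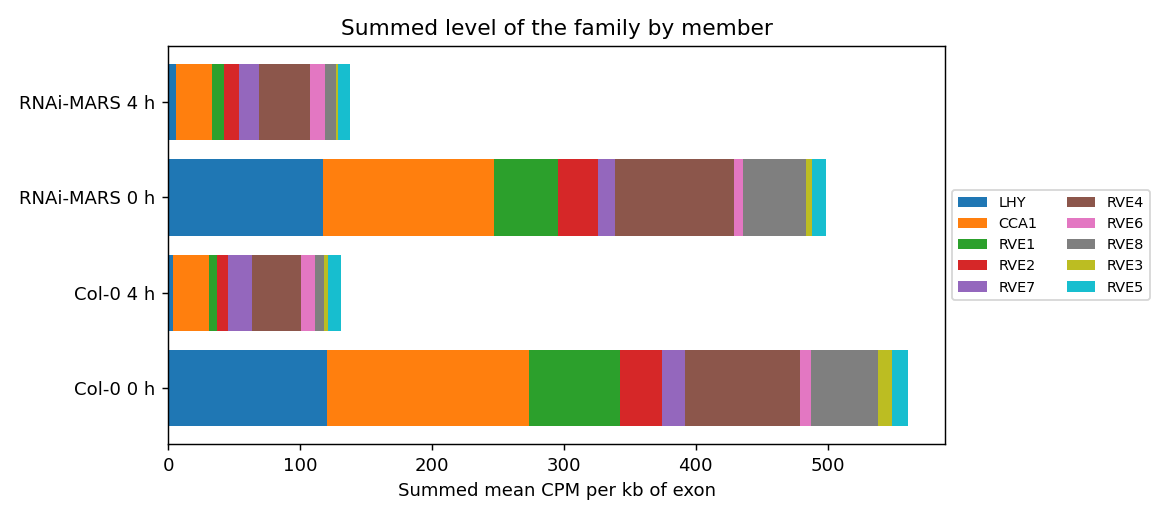
Summed mean level of the 10 genes in CPM per kb of exon (horizontal axis), 1 bar per group and 1 colour per gene, means of 3 libraries. The bars of the 4 h groups are 138 and 131 CPM per kb long and those of the 0 h groups 499 and 561, and the LHY segment is the one that shrinks most in proportion.

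The order of the levels per kb was nearly the same in both genotypes at a given time. At 0 h in RNAi-MARS, CCA1 (130 CPM per kb) and LHY (117) overlapped in range, RVE4 (89.9) stood below them, RVE1 (48.7) and RVE8 (47.5) overlapped, and RVE2 (30.1) followed. At 0 h in Col-0, CCA1 (153), LHY (121) and RVE4 (87.4) came in the same order, RVE4 overlapped with RVE1 (68.9), and RVE1 with RVE8 (51.0). The order of CCA1 and LHY at 0 h depends on the division by exon length. Their ratio of counts, LHY over CCA1, was 1.06 to 1.195 in RNAi-MARS and 0.963 to 1.02 in Col-0. RVE7, RVE5, RVE6 and RVE3 were the lowest at 0 h in both genotypes, at 4.78 to 17.9 CPM per kb. At 4 h RVE4 (39.1 CPM per kb in RNAi-MARS, 37.3 in Col-0) stood above CCA1 (27.3 and 27.5) without overlap, and RVE7 (15 and 17.6) came next. Most neighbours below these 3 genes overlapped in range, and LHY (5.63 and 3.40) and RVE3 (1.87 and 3.24) came last, without overlap in RNAi-MARS and with overlap in Col-0.

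At 4 h after the spray, 6 family members were lower and 1 was higher in RNAi-MARS, and 7 were lower and 1 was higher in Col-0, than at 0 h. Changes were common in both comparisons, in which 42.6% of all tested features were called in RNAi-MARS (21% lower, 21.6% higher) and 40% in Col-0 (19.3% lower, 20.7% higher). The size of the falls was less common. Falls of at least 4-fold were called for 0.601% of features in RNAi-MARS and 0.752% in Col-0, and LHY, CCA1, RVE1 and RVE8 were among them in both genotypes. The median log2 change of the 10 genes was -1.37 in RNAi-MARS and -1.78 in Col-0, against -0.02 and -0.00 over all tested features.

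**Figure D2:**
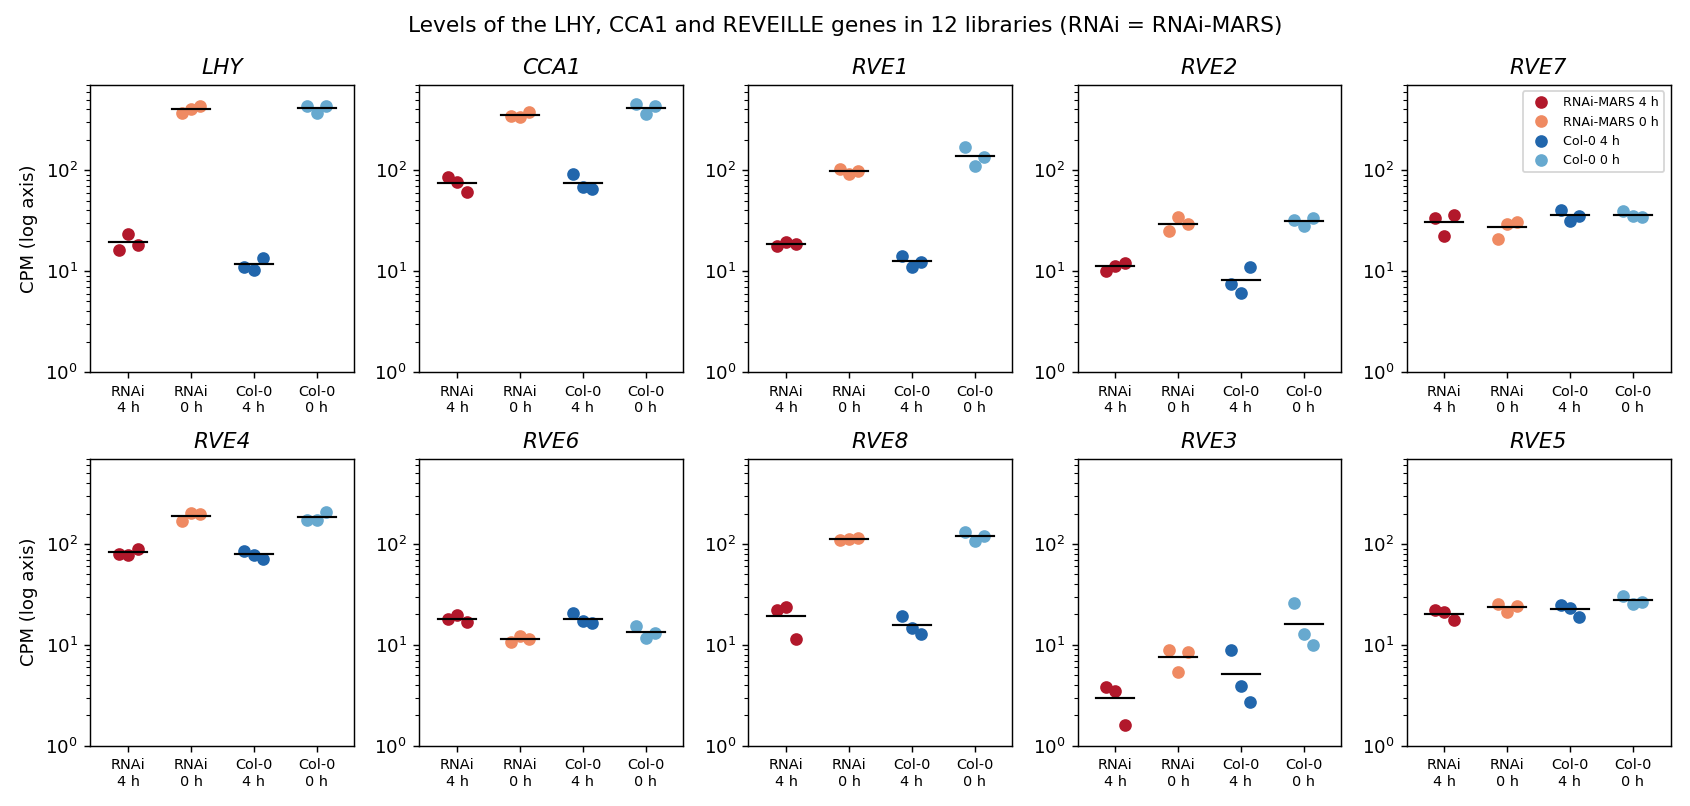
CPM of each gene (log axis) in the 12 libraries, 1 panel per gene, with points for libraries A, B and C from left to right and a bar at the mean of each group. LHY, CCA1, RVE1, RVE2, RVE3, RVE4 and RVE8 lie lower in each 4 h library than in any 0 h library of the same genotype. RVE5 does so in Col-0 and overlaps in RNAi-MARS, RVE6 lies higher, and RVE7 overlaps.

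LHY and CCA1 are the partly redundant morning repressors at the core of the clock, and LHY had the largest change of the family. LHY (AT1G01060, chr1:33365-37871 of TAIR10.1, minus strand, 9 exon blocks) had 16.3, 23.5 and 18.0 CPM in RNAi-MARS at 4 h, against 367, 404 and 430 CPM at 0 h. In Col-0 it had 11, 10.3 and 13.6 CPM at 4 h, against 433, 373 and 432 CPM at 0 h. The highest 4 h library thus lay far below the lowest 0 h library in both genotypes. The log2 change was -4.37 ± 0.17 in RNAi-MARS, 20.7-fold lower (edgeR adjusted p = 4.72e-08), and -5.15 ± 0.17 in Col-0, 35.4-fold lower (edgeR adjusted p = 1.91e-08). By size of the fall LHY ranked 5 among the 4718 features called lower in RNAi-MARS and 4 among 4333 in Col-0. Its counts were not whole in 3 of the 12 libraries.

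CCA1 (AT2G46830, chr2:19245591-19248915, plus strand) had 86.1, 76.1 and 60.8 CPM in RNAi-MARS at 4 h, against 346, 338 and 377 CPM at 0 h. In Col-0 it had 91.2, 67.5 and 65.5 CPM at 4 h, against 450, 364 and 433 CPM at 0 h. It too was lower in every 4 h library, but kept a larger part of its level than LHY did. CCA1 fell by 2.25 ± 0.16 on the log2 scale in RNAi-MARS (4.75-fold lower, adjusted p = 2.16e-06) and by 2.48 ± 0.16 in Col-0 (5.56-fold lower, adjusted p = 1.35e-06). The ratio of LHY to CCA1, per kb of exon, was 0.151, 0.245 and 0.235 in RNAi-MARS at 4 h and 0.844, 0.951 and 0.909 at 0 h, and in Col-0 0.0956, 0.122 and 0.166 at 4 h and 0.766, 0.814 and 0.794 at 0 h. At 0 h both RNAs were therefore near parity and the RNAi-MARS libraries were all above the Col-0 libraries, while at 4 h LHY was a small part of CCA1 and the genotypes overlapped. The ratio was not tested between genotypes, and neither gene was called between them at 0 h (edgeR adjusted p = 0.996 for both).

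RVE1 (AT5G17300, chr5:5690225-5692992, minus strand), the clock output that acts on auxin and dormancy, had 17.9, 19.5 and 18.7 CPM in RNAi-MARS at 4 h, against 104, 91.9 and 99.1 CPM at 0 h. In Col-0 it had 14.3, 11.1 and 12.3 CPM at 4 h, against 171, 110 and 136 CPM at 0 h. All 4 h libraries were lower, and library A of Col-0 was the highest of the 0 h libraries. RVE1 fell by 2.39 ± 0.15 on the log2 scale in RNAi-MARS (5.25-fold lower, adjusted p = 9.02e-07) and by 3.46 ± 0.16 in Col-0 (11-fold lower, adjusted p = 1.09e-07). An annotated gene on the opposite strand overlaps 225 bases of its exons but held at most 1 count in a library.

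RVE2 and RVE7 (EPR1) belong to the same output branch and did not move alike. RVE2 (AT5G37260) had 10.1, 11.3 and 12.2 CPM in RNAi-MARS at 4 h, against 24.9, 34.1 and 29.5 CPM at 0 h, and 7.53, 6.03 and 11.1 CPM in Col-0 at 4 h, against 31.8, 28.2 and 33.5 CPM at 0 h. Its groups did not overlap between times and it fell by 1.40 ± 0.19 in RNAi-MARS (adjusted p = 0.000152) and by 1.92 ± 0.19 in Col-0 (adjusted p = 2.36e-05). RVE7 (AT1G18330) had 33.6, 22.1 and 35.6 CPM in RNAi-MARS at 4 h, against 21.0, 29.6 and 30.8 CPM at 0 h, and 40.4, 31.6 and 35.3 CPM in Col-0 at 4 h, against 39.2, 35.5 and 34.0 CPM at 0 h. The times overlapped in both genotypes, and the changes of 0.16 ± 0.19 and -0.02 ± 0.19 were not called (adjusted p = 0.51 and 0.95). Counts of RVE7 were not whole in 9 of 12 libraries, so some of its reads had been divided with other features, and its values are uncertain to that extent.

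Among the activators of evening genes, RVE8 and RVE4 fell and RVE6 rose. RVE8 (AT3G09600, chr3:2946239-2949017, plus strand) had 22.2, 23.9 and 11.4 CPM in RNAi-MARS at 4 h, against 109, 111 and 114 CPM at 0 h. In Col-0 it had 19.2, 14.7 and 12.8 CPM at 4 h, against 132, 107 and 119 CPM at 0 h. The 4 h libraries spread widely in proportion, yet each lay below all 0 h libraries. RVE8 fell by 2.53 ± 0.24 in RNAi-MARS (5.76-fold lower, adjusted p = 1.61e-05) and by 2.93 ± 0.24 in Col-0 (7.64-fold lower, adjusted p = 8.18e-06).

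RVE4 (AT5G02840, also LCL1) had 80.4, 77.1 and 89.9 CPM in RNAi-MARS at 4 h, against 168, 201 and 200.3 CPM at 0 h, and 86.1, 78.5 and 71.3 CPM in Col-0 at 4 h, against 174, 172 and 207 CPM at 0 h. It fell in both genotypes by nearly the same amount, 1.2 ± 0.12 in RNAi-MARS (adjusted p = 1.4e-05) and 1.23 ± 0.12 in Col-0 (adjusted p = 1.39e-05), the smallest fall among the members called lower. RVE6 (AT5G52660) had 18.0, 19.6 and 16.7 CPM in RNAi-MARS at 4 h, against 10.8, 12.3 and 11.3 CPM at 0 h, and 20.9, 17.2 and 16.6 CPM in Col-0 at 4 h, against 15.5, 11.6 and 13.2 CPM at 0 h. It was the member that rose, by 0.66 ± 0.13 in RNAi-MARS (1.58-fold higher, adjusted p = 0.00146) and by 0.44 ± 0.13 in Col-0 (1.36-fold higher, adjusted p = 0.0152), with no overlap between times. The Col-0 call was lost without library B at 0 h (0.35, adjusted p = 0.0634) or library A at 4 h (0.34, adjusted p = 0.0596).

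RVE3 and RVE5 are less studied relatives of RVE8. RVE3 (AT1G01520, also ASG4) had 3.85, 3.45 and 1.59 CPM in RNAi-MARS at 4 h, against 8.93, 5.37 and 8.49 CPM at 0 h, and 8.85, 3.90 and 2.7 CPM in Col-0 at 4 h, against 26.0, 12.8 and 10.1 CPM at 0 h. The times did not overlap, but the libraries of Col-0 spread more than for any other member, with a coefficient of variation of 63.3% at 4 h and 52.4% at 0 h. The log2 change was -1.34 ± 0.51 in RNAi-MARS, not called (adjusted p = 0.0542), and -1.64 ± 0.50 in Col-0 (adjusted p = 0.0235). The Col-0 call was lost without library A at 0 h (-1.13, adjusted p = 0.0954), library B at 4 h (-1.47, adjusted p = 0.0775) or library C at 4 h (-1.32, adjusted p = 0.0711), and the change was larger, -2.29, without library A at 4 h. RVE3 is uncertain too, since 65 bases of its exons overlap AN on the same strand, which held up to 1605 counts in a library, and its reads had been divided in 2 libraries. RVE5 (AT4G01280) stayed between 17.7 and 30.7 CPM in all libraries. In Col-0 it had 24.8, 23.4 and 19.0 CPM at 4 h, against 30.7, 25.5 and 26.7 CPM at 0 h, without overlap, while the times overlapped in RNAi-MARS. Its changes of -0.22 ± 0.12 in RNAi-MARS and -0.30 ± 0.12 in Col-0 were not called (adjusted p = 0.176 and 0.0748). RVE5 is also uncertain, since 681 bases of its exons overlap a gene on the opposite strand, AT4G01290, which held up to 5910 counts in a library.

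**Figure D3:**
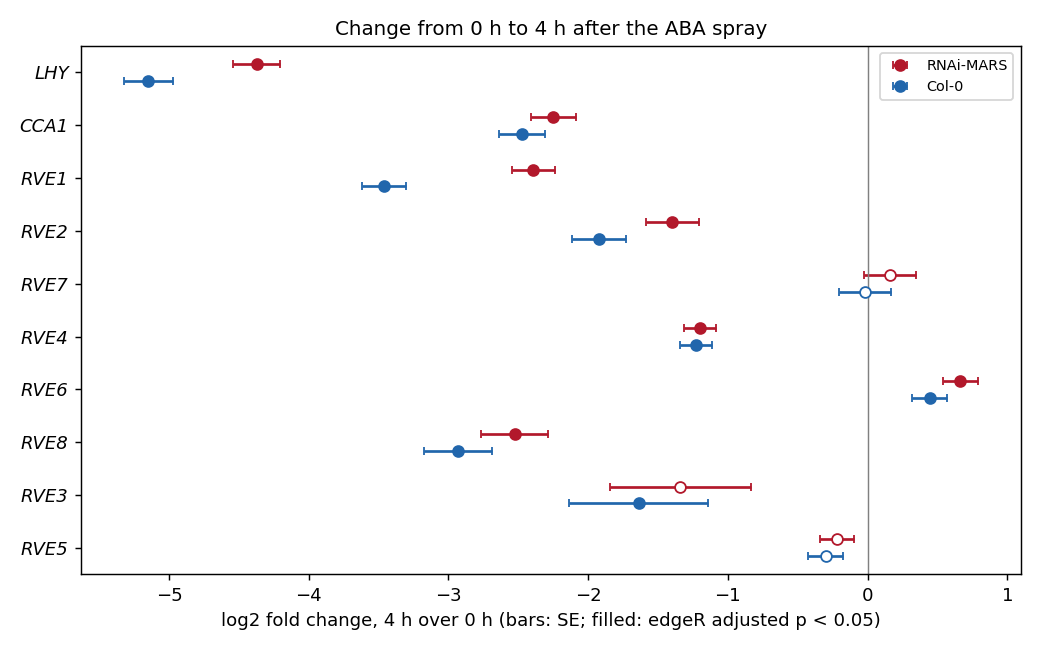
log2 fold change of 4 h over 0 h (horizontal axis) of the 10 genes in RNAi-MARS and in Col-0, with bars of 1 SE and filled points for changes called by edgeR. LHY lies farthest to the left, at -4.37 in RNAi-MARS and -5.15 in Col-0, and RVE6 is the gene with called changes to the right of 0.

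The lower and higher groups of libraries can be read without the model as well. In RNAi-MARS 7 members were lower in every 4 h library than in every 0 h library, as were 26.4% of all tested features, and RVE6 was higher, as were 26%. In Col-0 8 members, RVE5 among them, were lower in this sense, against 26.5% of features, and RVE6 was higher, against 26.4%. The summed level of the 11 shoot genes was 17895 to 27893 CPM in RNAi-MARS at 4 h and 40025 to 43672 CPM at 0 h, and 25739 to 29295 CPM in Col-0 at 4 h and 39714 to 50256 CPM at 0 h, with 5 of 11 genes called lower and 1 higher in each genotype, where 42.6% of all features were called in RNAi-MARS and 40% in Col-0. The sum of the 15 root genes overlapped between all groups, at 1965 to 2821 CPM. It mostly gives the level of 1 gene, AT3G09260, with group means of 2194 to 2415 CPM. Of 14 tested root genes 1 was higher and 1 lower in RNAi-MARS and 1 higher and 2 lower in Col-0. The part of such shifts in the changes of the family was not tested.

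The 300 bases before the annotated start of each gene were read from TAIR10.1 (RefSeq) and searched on both strands for the evening element AAAATATCT, the CCA1 binding site AAAAATCT and the G-box CACGTG, which contains ACGTG, the core of the ABA response element. A G-box was found in 6 of the 10 windows, those of LHY, CCA1, RVE1, RVE2, RVE3 and RVE5, against 7.09% of the 27443 windows of protein-coding genes. ACGTG alone is frequent, in 25.6% of windows, and 7 of the 10 windows held it, the 6 with a G-box and that of RVE6. Of the motifs that the family itself binds, the evening element (2.79% of windows) was found before RVE7 and the CCA1 binding site (7.94%) before RVE2 and RVE6, and none of the 4 motifs was in the windows of RVE4 and RVE8. The windows of RVE3 and RVE4 and part of that of RVE5 lie in other annotated genes. RVE4 and RVE8 were called lower in both genotypes without a G-box in the window. With a G-box, RVE3 was called lower in Col-0 alone and RVE5 in neither genotype. Whether the G-box goes with the falls was not tested. The first 4 sequences below are those of members that fell in both genotypes and have a G-box, and the last pair those of RVE6, which rose, and RVE7, which was not called, with a motif the family binds. Capitals mark the evening element, the CCA1 binding site and the G-box, all sequences are written 5′ to 3′ on the strand of the gene, and each ends at the base before the annotated start.
LHY, chr1:37872-38171, minus strand: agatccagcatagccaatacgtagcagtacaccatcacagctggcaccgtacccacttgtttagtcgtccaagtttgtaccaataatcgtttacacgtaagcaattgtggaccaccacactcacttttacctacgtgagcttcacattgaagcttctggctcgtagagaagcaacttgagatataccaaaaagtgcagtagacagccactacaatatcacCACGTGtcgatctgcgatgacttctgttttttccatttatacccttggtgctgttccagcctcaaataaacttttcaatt
CCA1, chr2:19245291-19245590, plus strand: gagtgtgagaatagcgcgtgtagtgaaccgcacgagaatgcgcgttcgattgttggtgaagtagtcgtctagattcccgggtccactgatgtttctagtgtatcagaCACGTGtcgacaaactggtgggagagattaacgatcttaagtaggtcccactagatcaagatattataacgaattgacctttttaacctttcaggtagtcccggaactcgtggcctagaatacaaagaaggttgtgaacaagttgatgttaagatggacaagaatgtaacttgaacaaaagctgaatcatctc
RVE1, chr5:5692993-5693292, minus strand: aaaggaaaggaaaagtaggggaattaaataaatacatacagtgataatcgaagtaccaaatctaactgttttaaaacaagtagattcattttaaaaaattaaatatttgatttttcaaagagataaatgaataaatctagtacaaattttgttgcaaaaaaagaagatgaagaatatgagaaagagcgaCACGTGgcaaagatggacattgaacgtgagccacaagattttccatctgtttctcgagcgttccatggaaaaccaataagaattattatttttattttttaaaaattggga
RVE2, chr5:14753089-14753388, minus strand: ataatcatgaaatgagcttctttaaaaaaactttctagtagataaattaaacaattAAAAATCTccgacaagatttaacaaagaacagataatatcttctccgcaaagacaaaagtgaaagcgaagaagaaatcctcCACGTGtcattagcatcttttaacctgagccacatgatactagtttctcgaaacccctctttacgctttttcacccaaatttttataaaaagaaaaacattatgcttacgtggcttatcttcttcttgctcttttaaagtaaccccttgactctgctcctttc
RVE6, chr5:21362274-21362573, minus strand: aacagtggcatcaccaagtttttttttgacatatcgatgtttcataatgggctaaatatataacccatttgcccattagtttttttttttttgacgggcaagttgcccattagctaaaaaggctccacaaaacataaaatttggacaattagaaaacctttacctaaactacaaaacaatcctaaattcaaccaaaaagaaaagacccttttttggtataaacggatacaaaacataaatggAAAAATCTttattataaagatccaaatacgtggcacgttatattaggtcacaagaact
RVE7, chr1:6308244-6308543, minus strand: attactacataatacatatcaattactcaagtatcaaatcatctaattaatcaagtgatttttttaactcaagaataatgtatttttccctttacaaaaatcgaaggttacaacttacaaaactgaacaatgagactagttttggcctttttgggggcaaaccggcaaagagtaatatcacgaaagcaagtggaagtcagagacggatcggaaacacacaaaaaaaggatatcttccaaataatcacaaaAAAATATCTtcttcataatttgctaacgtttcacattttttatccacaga
The G-box began 80 bases before the start of LHY, 193 before CCA1, 111 before RVE1 and 163 before RVE2, while the CCA1 binding site began 58 bases before RVE6 and 244 before RVE2, and the evening element 50 bases before RVE7. A match of letters is a description and does not show that a protein binds there.

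Between the genotypes after ABA edgeR called no family member. Over all features 0.089% were called by edgeR (20 of 22465), 8.82% had an unadjusted p under 0.05, and DESeq2 called 0.361%. LHY and RVE1 were higher in each RNAi-MARS library than in each Col-0 library, a pattern seen for 5.96% of features, and no member was lower in all (5.8% of features). LHY at 16.3 to 23.5 CPM in RNAi-MARS and 10.3 to 13.6 CPM in Col-0 gave a log2 difference of 0.73 ± 0.15 (unadjusted p = 0.000534, edgeR adjusted p = 0.324). DESeq2 called LHY (0.73, adjusted p = 0.00218). RVE1, at 17.9 to 19.5 CPM in RNAi-MARS and 11.1 to 14.3 CPM in Col-0, gave 0.57 ± 0.15 (edgeR adjusted p = 0.46, DESeq2 adjusted p = 0.0826).

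The other members showed smaller or less even differences after ABA. RVE2 (0.44 ± 0.19) and RVE8 (0.31 ± 0.23) had estimates above 0 with overlapping libraries, and RVE3 (-0.79 ± 0.51) had one below 0 with the widest error, which was -0.12 without library A of Col-0 at 4 h. CCA1 differed by -0.01 ± 0.16, RVE4 by 0.07 ± 0.11 and RVE6 by -0.01 ± 0.12. The median over the 10 genes was 0.03, against -0.01 over all tested features. The remainder were RVE5 (-0.15 ± 0.12) and RVE7 (-0.24 ± 0.19). The summed heat shock level was 294 to 340 CPM in RNAi-MARS and 347 to 631 CPM in Col-0, with none of the 8 genes called, 2 above 0 and 6 below 0. Its part in these differences was not tested. Without library C of Col-0 at 4 h the LHY difference was 0.86 (edgeR adjusted p = 0.0947). Over all features 30 were then called higher and 25 lower, against 2 and 18 with that library. Over 17 alternatives the LHY difference was 0.57 to 0.86, lowest without library B of RNAi-MARS at 4 h (edgeR adjusted p = 0.427).

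Before ABA edgeR likewise called no member, with 0.089% of features called (20 of 22465), 4.33% at an unadjusted p under 0.05, and 0.134% called by DESeq2, which called no member either. The estimates of 9 of 10 genes were below 0, LHY and RVE2 only with library A of RNAi-MARS included, and the median of the 10 was -0.23, against 0.00 over all features. Most estimates of the other lists were below 0 too. These were 8 of 10 clock outputs, 9 of 14 clock partners, 4 of 4 LNK genes, 7 of 7 ABA markers and 7 of 8 heat shock genes. Of the shoot genes 8 of 11 were below 0, and of the root genes 9 of 14. RVE1, RVE3, RVE5 and RVE7 were lower in each RNAi-MARS library than in each Col-0 library, a pattern found for 6.12% of features, and no member was higher in all (5.16%). RVE1 had 91.9 to 104 CPM in RNAi-MARS and 110 to 171 CPM in Col-0 (-0.50 ± 0.14), and RVE7 had 21.0 to 30.8 CPM in RNAi-MARS and 34.0 to 39.2 CPM in Col-0 (-0.42 ± 0.19). RVE3 differed by -1.08 ± 0.48 and RVE5 by -0.23 ± 0.12, and all 10 adjusted p-values were 0.996. LHY (-0.04 ± 0.14), RVE2 (-0.08 ± 0.18), RVE4 (0.04 ± 0.11) and RVE8 (-0.10 ± 0.22) were within their error of 0, while CCA1 (-0.23 ± 0.16) and RVE6 (-0.23 ± 0.13) were not called.

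Of the stress lists, the heat shock sum did not overlap between genotypes before ABA, while the ABA marker sum did. No gene of these lists was called between genotypes by edgeR. The summed heat shock level at 0 h was 111 to 122 CPM in RNAi-MARS and 345, 208 and 157 CPM in libraries A, B and C of Col-0, and the summed level of 7 ABA marker genes was 55.4 to 114 CPM in RNAi-MARS and 248, 145 and 73.7 CPM in Col-0, with overlap. Library A of Col-0 at 0 h had the highest sums of both lists in its group. It also had the highest level of 8 of the 10 family members, all but RVE2 and RVE4. Library A of Col-0 at 4 h likewise had the highest level of 8 members. Its ABA marker sum was the lowest of its group (2697 CPM, against 3011 and 2739 CPM). Its heat shock sum was below that of library C (435 against 631 CPM). How many of all features were highest in library A was not counted. Without library A of Col-0 at 0 h RVE1 differed by -0.32 and RVE3 by -0.58 between the genotypes, and the part of the stress lists was not tested.

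**Figure D4:**
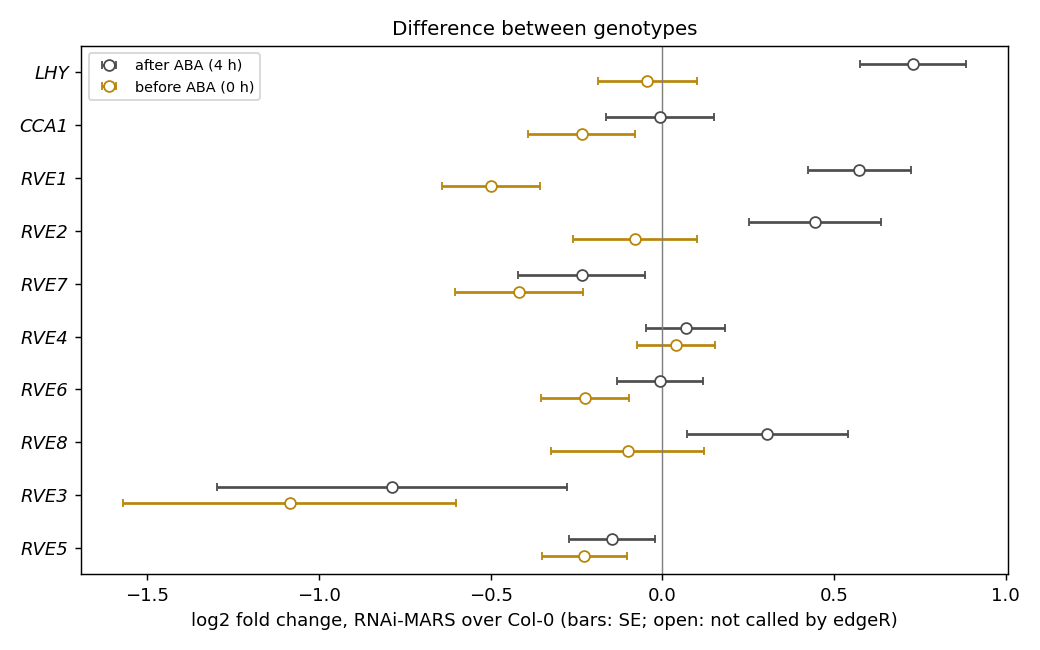
log2 fold change of RNAi-MARS over Col-0 (horizontal axis) of the 10 genes after and before ABA, with bars of 1 SE and open points because edgeR called none. LHY and RVE1 lie to the right of 0 after ABA, at 0.73 and 0.57, and RVE1 lies to the left before it, at -0.50.

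The difference between the ABA response of RNAi-MARS and that of Col-0 was not called for any member, nor by edgeR for any of the 22465 features (0%), of which 4.79% had an unadjusted p under 0.05 and 0.0178% were called by DESeq2. The estimates of all 10 genes were above 0, with a median of 0.26 against -0.01 over all features, which for the members that fell means a smaller fall in RNAi-MARS. RVE3, RVE4 and RVE5 went below 0 when single libraries were left out. RVE1 had the largest estimate, 1.07 ± 0.21 (unadjusted p = 0.000257, edgeR adjusted p = 0.946), and it was the member that DESeq2 called (1.08, adjusted p = 0.0139). It stayed between 0.89 and 1.22 in all 22 alternatives. LHY followed with 0.77 ± 0.21 (unadjusted p = 0.00341, edgeR adjusted p = 0.946, DESeq2 adjusted p = 0.307), RVE2 with 0.52 ± 0.26 and RVE8 with 0.41 ± 0.32, and RVE4 (0.03 ± 0.16) was nearest to 0. The estimates of 7 of 7 ABA markers (median 0.83) and 8 of 8 heat shock genes (median 0.37) were above 0 too, none called, and the part of these lists was not tested. Of the clock lists described below, 9 of 10 clock outputs (median 0.23), 3 of 4 LNK genes (0.10) and 8 of 14 clock partners (0.02) were above 0. So were 8 of 14 root genes and 2 of 11 shoot genes.

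The rest of the clock moved in its own directions between 0 h and 4 h. Of the 14 clock partners, the evening and daytime genes with which the family forms loops, 10 were higher and 1 lower in RNAi-MARS at 4 h, and 9 were higher and 1 lower in Col-0, with medians of 1.29 and 1.32, against -0.02 and -0.00 over all features. Of all features 21.6% were called higher and 21% lower in RNAi-MARS, and 20.7% higher and 19.3% lower in Col-0. FKF1, a blue light receptor that degrades CDF repressors, had 5.60, 6.14 and 6.91 CPM in RNAi-MARS at 4 h, against 0, 2 and 3 counts at 0 h, and 5.92, 6.70 and 7.52 CPM in Col-0 at 4 h, against 1, 6.33 and 0.67 counts at 0 h. Its fitted changes of 6.55 ± 0.50 and 6.02 ± 0.47 rest on those few counts at 0 h, and FKF1 overlaps a gene on the opposite strand with up to 2099 counts in a library, so its level is uncertain. PRR5, a repressor of LHY and CCA1, had 24.2, 24.5 and 34.5 CPM in RNAi-MARS at 4 h, against 0.118, 0.674 and 0.724 CPM at 0 h, and rose by 5.74 ± 0.41 there and by 5.28 ± 0.39 in Col-0 (adjusted p = 3.43e-06 and 4.85e-06). ZTL, a relative of FKF1, was the partner that fell, by 0.32 ± 0.08 in RNAi-MARS and 0.23 ± 0.08 in Col-0 (adjusted p = 0.00735 and 0.0358).

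**Figure D5:**
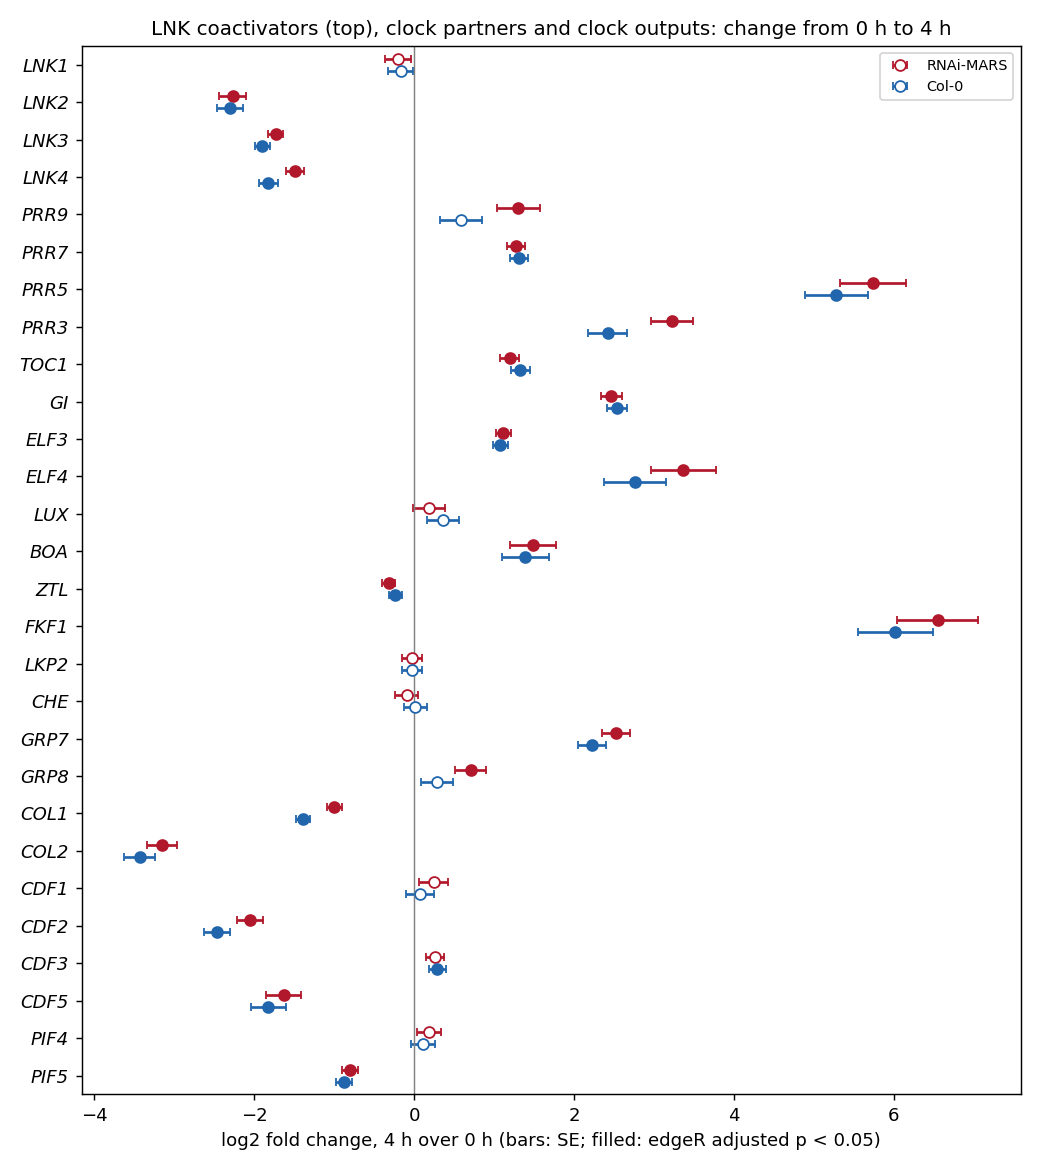
log2 fold change of 4 h over 0 h (horizontal axis) of the LNK coactivators, clock partners and clock outputs in RNAi-MARS and in Col-0, with bars of 1 SE and filled points for changes called by edgeR. LNK2, LNK3 and LNK4 lie to the left of 0 with COL2 and CDF2, and FKF1 and PRR5 lie farthest to the right, above 5.

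Of the 4 LNK genes, coactivators with which RVE8 and RVE4 act on their targets, 3 fell and none rose in each genotype. LNK2 fell by 2.27 ± 0.17 in RNAi-MARS and 2.30 ± 0.17 in Col-0 (adjusted p = 2.23e-06 and 2.29e-06), and LNK3 by 1.73 ± 0.09 and 1.90 ± 0.09. Of 10 clock outputs, 2 were higher and 5 lower in each genotype, where the share called higher is close to that over all features and the share called lower was 21% of all features in RNAi-MARS and 19.3% in Col-0. GRP7, an RNA-binding protein of a slave oscillator, rose by 2.52 ± 0.17 in RNAi-MARS and 2.22 ± 0.17 in Col-0. The other called rises were that of its relative GRP8, named after its values were seen, in RNAi-MARS (0.71 ± 0.19, adjusted p = 0.0123, with 0.29 ± 0.19 and adjusted p = 0.265 in Col-0) and that of the Dof factor CDF3 in Col-0 (0.29 ± 0.11, adjusted p = 0.0474, with 0.26 ± 0.11 and adjusted p = 0.0681 in RNAi-MARS). Reads of CDF3 had been divided in 7 libraries. COL2, a CONSTANS relative, fell by 3.16 ± 0.19 and 3.43 ± 0.19, and CDF2, a repressor of CONSTANS, by 2.05 ± 0.16 and 2.47 ± 0.16. COL2 overlaps 2 genes on the opposite strand and LNK3 overlaps 1, with up to 558 counts in a library in each case. No gene of these 3 lists was called between genotypes at either time, where edgeR called 0.089% of all features at each time.

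Outside the family, the genes whose profile was most like those of LHY, CCA1, RVE1 and RVE8 were searched among 19619 nuclear genes. Likeness was the root mean square difference of log2 CPM over the 12 libraries after each gene's own mean was subtracted, in which smaller is closer. The log2 CPM were taken with an added prior count of 2, and the libraries share their time points and depth. CCA1 had the closest matches, LNK2 at 0.13 and AT2G41250, annotated as a haloacid dehalogenase-like hydrolase, at 0.14. RVE8 was the family member with the profile nearest to that of CCA1, at 0.27. The nearest of 19619 genes is likely to be closer than the nearest of 9 other family members. These distances therefore do not rank the family against other genes. FBA1, a fructose-bisphosphate aldolase with divided reads in 5 libraries, followed at 0.21. RVE1 was matched by the beta-amylase gene BMY3 (0.22), the glutaredoxin family gene AT1G06830 (0.22) and AT4G15430 (0.26). Its nearest family member was RVE8, at 0.33. BMY3 overlaps a gene on the opposite strand with up to 2518 counts in a library.

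LHY had the most distant matches of these 4 genes. Its nearest genes were AT1G26790, annotated as a Dof-type zinc finger protein, at 0.54 (0.202 and 4.41 mean CPM in RNAi-MARS at 4 h and 0 h), AT5G35777 at 0.55, with divided reads in 7 libraries, and MEE3 at 0.73. All 3 averaged under 1 CPM in both groups at 4 h and passed the minimum mean of 1 CPM through their level at 0 h, so that minimum favours genes that fell, and the same holds for AT1G06830 beside RVE1. The added prior count also shrinks the falls of genes this low, and its part in their distance from LHY was not tested. Within the family, the profile nearest to that of LHY was that of RVE1, at 0.96. For RVE8 the nearest genes outside the family were AT4G15430 (0.29), the starch synthase gene GBSS1 (0.30) and COL2 (0.32), and CCA1 was nearest within it (0.27).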

How the data were processed

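The values used are expected counts, the reads estimated per feature in each of 12 libraries, which the authors deposited unscaled. Per the submitters' processing notes, reads passed through Trimmomatic 0.36, STAR 2.7.2a and featureCounts (Subread 1.6.5) on TAIR10. How strand and reads with several matches were treated is not given in the sources used here. In each library 5.31% to 7.6% of features had counts that were not whole. Gene positions and upstream sequence are from TAIR10.1 (RefSeq).

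After rounding, edgeR 4.0.16 (R 4.3.3) fitted 1 coefficient per group over all 12 libraries, with TMM, filterByExpr at a minimum count of 10, robust dispersion and the quasi-likelihood F test. Tests are 2-sided, with Benjamini-Hochberg adjustment over 22465 features and calls under 0.05. The SE of a log2 change is its size over the root of F. DESeq2 1.42.0, limma-voom of limma 3.58.1, other scalings and filters, a replicate block and leaving out libraries were alternatives. The pipeline was tested on simulated data first.

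The 10 members and the other lists were chosen with earlier results of these data known. Named outside the family were, per clock list, up to 2 called members of largest change in each direction in Col-0 and the 3 genes most like LHY, CCA1, RVE1 and RVE8. Nothing in the labels says that libraries A, B and C of a group came from separate cultures, so the p-values measure only how far these samples spread, in part perhaps technically. Every pair of libraries of a group differed by more than sampling noise (chi-square over degrees of freedom 6.55 or more).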

Additional observations from a re-analysis of the deposited data

Results flagged for a closer look

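RVE1 was the family member whose response to the spray differed between RNAi-MARS and Col-0 by 1 of the tests. DESeq2 called the difference of the responses (log2 1.08, adjusted p = 0.0139), with RVE1 falling by 2.38 in RNAi-MARS and by 3.46 in Col-0 in that fit. edgeR (1.07, adjusted p = 0.946) and limma-voom (1.06, adjusted p = 0.936) did not call it. At 0 h each RNAi-MARS library had less RVE1 than any Col-0 library, and at 4 h each had more, and neither contrast was called. Without library A of Col-0 at 0 h, the library with the highest RVE1 level, the edgeR difference was 0.89.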

How the results depend on the processing

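The number of family members called was 7 to 8 of 10 in RNAi-MARS and 7 to 9 in Col-0 over all alternatives. In the genotype comparisons and the difference of the responses it was 0 in each alternative except DESeq2. DESeq2 called 1 member, LHY, after ABA (81 features in all, against 20 by edgeR) and 1 member, RVE1, for the difference of the responses (4 features, against 0). Of 900 alternative values of single genes in 23 settings, 8 lost a call, 7 gained one, 25 uncalled values changed sign and none reversed a call. The calls lost were those of RVE3 and RVE6 in Col-0. RVE3 was lost with no filter (adjusted p = 0.0506), with only the compared groups (0.0728) and without both libraries that stand apart, an alternative chosen after seeing the data (0.0933). In RNAi-MARS RVE3 was called by DESeq2 (0.0129), with a stricter filter (0.0498), with only the compared groups (0.0205) and with the replicate block (0.0079); the causes were not tested. With the replicate block, 8 members were called in RNAi-MARS and 9 in Col-0, where RVE5 was added (0.0367). Letters are not stated to pair libraries, and of 18 same-letter pairs 8 deviated together with r over 0.1 (range -0.299 to 0.403). Scaling by library totals alone gave 5837 higher and 3658 lower calls in RNAi-MARS, against 4849 and 4718, and left the family counts at 7 and 8. Depth limits RVE3 most, with as few as 33 counts in a library.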
